A study of Mus musculus with 16 samples.

Results

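The small proline-rich proteins of the Sprr1 and Sprr2 groups were followed in skin wounds of db/db and WT mice through 12 array probes for 10 genes. The probes were chosen by gene symbol, as all probes whose array annotation maps through RefSeq to Sprr1a, Sprr1b, Sprr2a2, Sprr2b, Sprr2d, Sprr2e, Sprr2f, Sprr2g, Sprr2h or Sprr2i, out of 39429 probes and 20828 named genes on the array. The family was picked out because of its low levels in db/db + estrogen wounds labelled day 7, so values of that labelled day are given as a description and without a test. Sprr proteins are small, proline- and glutamine-rich substrates of transglutaminases, which cross-link them into the cornified envelope, the protein shell that replaces the plasma membrane of a keratinocyte as it becomes part of the outer barrier. Their genes lie side by side in the epidermal differentiation complex. They are low in resting interfollicular epidermis and are known to be induced in keratinocytes by injury, ultraviolet light and inflammation, which makes them markers of a stressed or regenerating epidermis.

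Wounds came from females of the strain C57BLKS/J Iar-+Lepr db/+Lepr db, called db/db, aged 10 weeks and obese and diabetic because the leptin receptor is mutated, and from WT females (C57BL/6J, 10 to 12 weeks old). In the db/db + estrogen group, estradiol benzoate in sesame oil was put on the wounds every day at 0.75 μg/g/day, db/db + vehicle wounds were given only sesame oil, and db/db and WT wounds were given neither. RNA came from a homogenate of the wound with the intact skin around it, and was hybridised in 1 colour to 16 arrays, 2 per group on each of 2 labelled days, 7 and 14. All db/db groups differ from WT in strain background as well as in the leptin receptor, and these cannot be told apart. The labels do not say whether the 2 arrays of a group came from separate mice or from 2 wounds of 1 mouse, so the spread between them may be technical. The labelled days are kept throughout as GEO gives them, although the fold changes that the study tabulates under one day are found on the arrays labelled with the other day, and the files do not show which is right. A level is the log2 of the spot's signal minus the log2 of the 75th percentile of its array, so that 0 is the 75th percentile, and levels of different probes are not set against each other.

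Signals well above background made up from 70.1% (lowest array) to 79.0% (highest array) of the probes, and no spot was saturated. Keratinocyte markers were well above background on every array, 8 of 8 genes, as were 5 of 5 fibroblast markers, so markers of epidermis and dermis were present throughout. Each slide of labelled day 7 held 1 array of each group. For labelled day 14, 1 slide held both db/db arrays and another held both WT arrays, and the treated groups were split over both slides. All arrays of 1 labelled day were scanned on the same day, so labelled day and scan day cannot be told apart.

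The 10 genes lie within 1 stretch of chromosome 3. In GRCm38.p6, in the RefSeq annotation, Sprr2a2 starts at 92250647 and is followed by Sprr2b at 92316705, Sprr2d at 92339140, Sprr2e at 92352143, Sprr2f at 92365187, Sprr2g at 92373915, Sprr2h at 92385685 and Sprr2i at 92407991. Sprr1b (92436808 to 92438817) and Sprr1a (92483954 to 92485881) come last and lie on the opposite strand. In this annotation 9 of the 10 members code for protein and Sprr2g is a transcribed pseudogene. The bases before the start are shown because the members moved together on these arrays, and 9 of the 10 members, all but Sprr2g, have an entry in the RefSeq promoter table. The sequences below are the 200 bases before the annotated start of 5 members, written from 5′ to 3′ on the strand of the gene. Capitals mark TGANTCA, the site of AP-1 (dimers of Fos and Jun proteins), and ATTTGCAT, the octamer recognized by POU-domain factors such as Pou2f3 of the epidermis.
Sprr2f, chr3:92364987-92365186, plus strand: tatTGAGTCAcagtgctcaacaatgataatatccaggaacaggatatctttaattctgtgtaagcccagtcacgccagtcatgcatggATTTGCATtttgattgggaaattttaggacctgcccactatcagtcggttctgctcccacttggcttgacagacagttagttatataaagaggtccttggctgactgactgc
Sprr2i, chr3:92407791-92407990, plus strand: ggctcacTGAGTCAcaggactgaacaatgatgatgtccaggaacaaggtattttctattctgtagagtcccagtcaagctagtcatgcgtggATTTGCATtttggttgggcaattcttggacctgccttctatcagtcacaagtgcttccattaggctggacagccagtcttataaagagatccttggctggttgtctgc
Sprr2b, chr3:92316505-92316704, plus strand: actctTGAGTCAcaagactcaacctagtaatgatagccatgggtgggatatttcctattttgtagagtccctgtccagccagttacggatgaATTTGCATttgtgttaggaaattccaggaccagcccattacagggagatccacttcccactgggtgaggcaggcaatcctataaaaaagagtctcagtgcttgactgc
Sprr2a2, chr3:92250447-92250646, plus strand: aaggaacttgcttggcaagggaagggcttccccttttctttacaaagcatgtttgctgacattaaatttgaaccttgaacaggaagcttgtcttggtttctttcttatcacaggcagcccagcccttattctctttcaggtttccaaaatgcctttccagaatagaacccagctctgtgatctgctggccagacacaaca
Sprr1a, chr3:92485882-92486081, minus strand: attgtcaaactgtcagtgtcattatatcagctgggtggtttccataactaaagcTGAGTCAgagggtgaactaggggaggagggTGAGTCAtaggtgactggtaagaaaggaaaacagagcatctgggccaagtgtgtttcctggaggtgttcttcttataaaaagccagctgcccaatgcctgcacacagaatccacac

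These 5 were chosen because Sprr2f and Sprr2i had the highest bounds on the arrays labelled day 7, Sprr2b the largest difference from db/db on those labelled day 14, and Sprr2a2 and Sprr1a the smallest folds between estrogen and db/db on those labelled day 7. Both motifs and TATAAA were searched on both strands in the 250 bases before the start, the motifs being picked from general knowledge after the levels were known. The AP-1 motif was found before 8 of the 9 members, against 6.75% of the 32851 promoters in the table. The octamer was found before 6 of the 9, which are Sprr2b, Sprr2d, Sprr2e, Sprr2f, Sprr2h and Sprr2i, against 1.60% of all promoters. TATAAA was found before the same 8 members as the AP-1 motif, against 12.37% of all promoters. No match of one of the capitalized motifs overlapped another in the members.

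The spacing of the motifs was nearly the same in the 6 Sprr2 genes that hold all 3. The first base of the AP-1 motif lay at positions -198 to -193 from the start, that of the octamer at -112 to -108 and that of TATAAA at -29. Sprr1b had the AP-1 motif at -111, and Sprr1a had it at -146 and at -116, neither with an octamer. The window of Sprr2a2 held none of the 3. Its gene model spans 6658 bases, against 1256 to 2010 for the other members. Over the 250 bases, the window of Sprr2a2 was identical to that of Sprr2a1 (100% of bases), and those of Sprr2d and Sprr2e shared 89.3% of aligned positions, so these genes are copies of each other and a match before several of them is not an independent observation. The RefSeq gene model of Sprr1b reaches 38 bases into its own window. Whether any factor binds these letters was not measured.

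**Figure D1:**
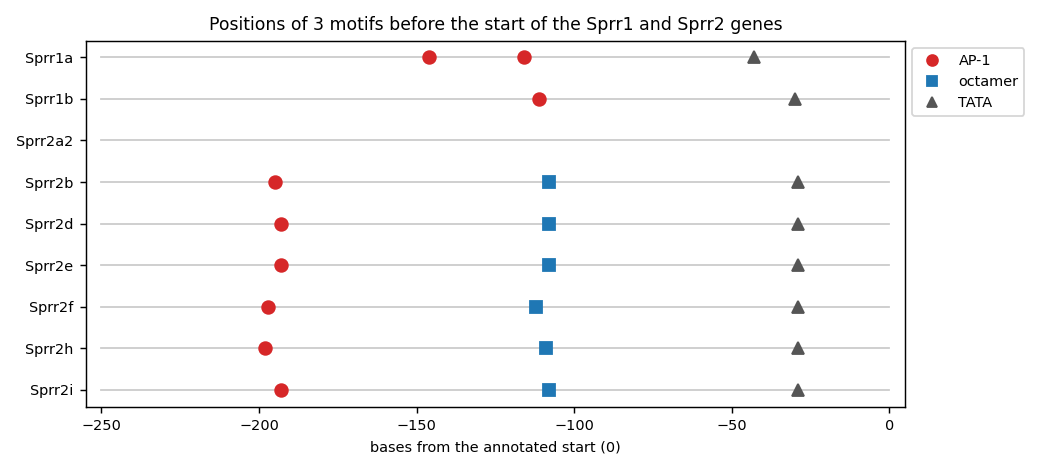
Position of the first base of the AP-1 motif (red circles), the octamer (blue squares) and TATAAA (grey triangles) in the 250 bases before the annotated start of 9 members; the x axis is the distance from the start in bases and each line is 1 gene. The 6 genes Sprr2b, Sprr2d, Sprr2e, Sprr2f, Sprr2h and Sprr2i carry the 3 motifs at nearly the same distances, and no motif stands before Sprr2a2.

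Of the 12 probes, 9 were well above background on all 16 arrays, and the 3 others, for Sprr2b, Sprr2f and Sprr2i, failed only on both db/db + estrogen arrays labelled day 7. All 12 probes passed the filter on dim signals in every comparison made here. Of the 10 genes, 9 had 1 probe each, whereas Sprr2a2 had 3 that did not behave alike. A_55_P1974976 was between 6.47 and 7.08 on all 16 arrays and was the only member probe that was not over 2-fold apart in any comparison. A_55_P2048853 and A_55_P2048855 varied with the rest of the family. No probe is named for Sprr2a1 or Sprr2a3, whose sequences are nearly those of Sprr2a2, and the probe sequences were not used here, so which of these genes each Sprr2a2 probe reads is uncertain, and related Sprr2 genes may share signal.

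For labelled day 7, 11 of the 12 probes were lower on both db/db + estrogen arrays than on any of the other 14 arrays of the study. The family was picked for these low values, and the share of all probes that separate so was not counted. Nothing is therefore read from that count. Sprr2f was at 0.02 and 1.09 on the WT arrays, 0.50 and 1.83 on the db/db arrays, -8.39 and -8.62 on the db/db + estrogen arrays and 4.35 and 2.67 on the db/db + vehicle arrays. The estrogen arrays stood apart from all the others, and the vehicle arrays were above those of WT and db/db. Because Sprr2f was not well above background with estrogen, its difference is a bound, at least 335-fold lower than in db/db and at least 1704-fold lower than in db/db + vehicle. The measured means were -8.51 ± 0.16 (SD, n = 2) with estrogen, 1.17 ± 0.94 in db/db and 3.51 ± 1.19 with vehicle.

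Sprr2i, an envelope precursor of the same group, showed the same order. It was at 1.45 and 2.61 in WT, 1.79 and 2.60 in db/db, -7.06 and -7.45 in db/db + estrogen and 5.49 and 3.02 in db/db + vehicle. It was at least 684-fold lower with estrogen than in db/db and at least 2849-fold lower than with vehicle, and its signal with estrogen was not well above background on either array. Sprr2b was at -1.79 and -2.00 in WT, -4.55 and -2.91 in db/db, -9.27 and -8.92 in db/db + estrogen and -0.07 and -1.43 in db/db + vehicle. It was at least 11.2-fold lower with estrogen than in db/db and at least 88.7-fold lower than with vehicle. Its bounds are smaller because its level in the untreated groups was itself nearer to background.

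The members that stayed well above background on the estrogen arrays had measurable folds. Sprr2g, the pseudogene, was at 1.51 and 3.16 in db/db and at -5.28 and -5.58 with estrogen, 217-fold lower. Sprr2e was at 2.42 and 3.52 in db/db and at -3.74 and -4.04 with estrogen, 116-fold lower. Sprr2d was 26.6-fold lower, from 5.05 and 6.06 in db/db to -0.01 and 1.66 with estrogen. Sprr2h was 17.7-fold lower, from 1.90 and 2.96 to -1.53 and -1.91. In each of these genes both estrogen arrays lay below both db/db arrays.

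Of the Sprr1 genes, which encode longer proteins of the same kind, Sprr1b was at 3.54 and 4.87 in WT, 3.43 and 4.13 in db/db, -1.17 and -2.05 in db/db + estrogen and 5.15 and 2.82 in db/db + vehicle. It was 42.1-fold lower with estrogen than in db/db and 48.4-fold lower than with vehicle. Sprr1a was at 2.85 and 4.17 in WT, 2.33 and 4.46 in db/db, 1.11 and -0.55 in db/db + estrogen and 4.43 and 3.47 in db/db + vehicle, which was 8.67-fold lower with estrogen than in db/db. Of the Sprr2a2 probes, A_55_P2048855 was 3.72-fold lower with estrogen than in db/db (4.09 and 3.51 against 5.81 and 5.58) and A_55_P2048853 was 4.14-fold lower (-6.73 and -6.99 against -5.03 and -4.58). A_55_P1974976 was at 6.89 and 6.74 with estrogen and 6.47 and 6.73 in db/db, 1.16-fold apart.

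**Figure D2:**
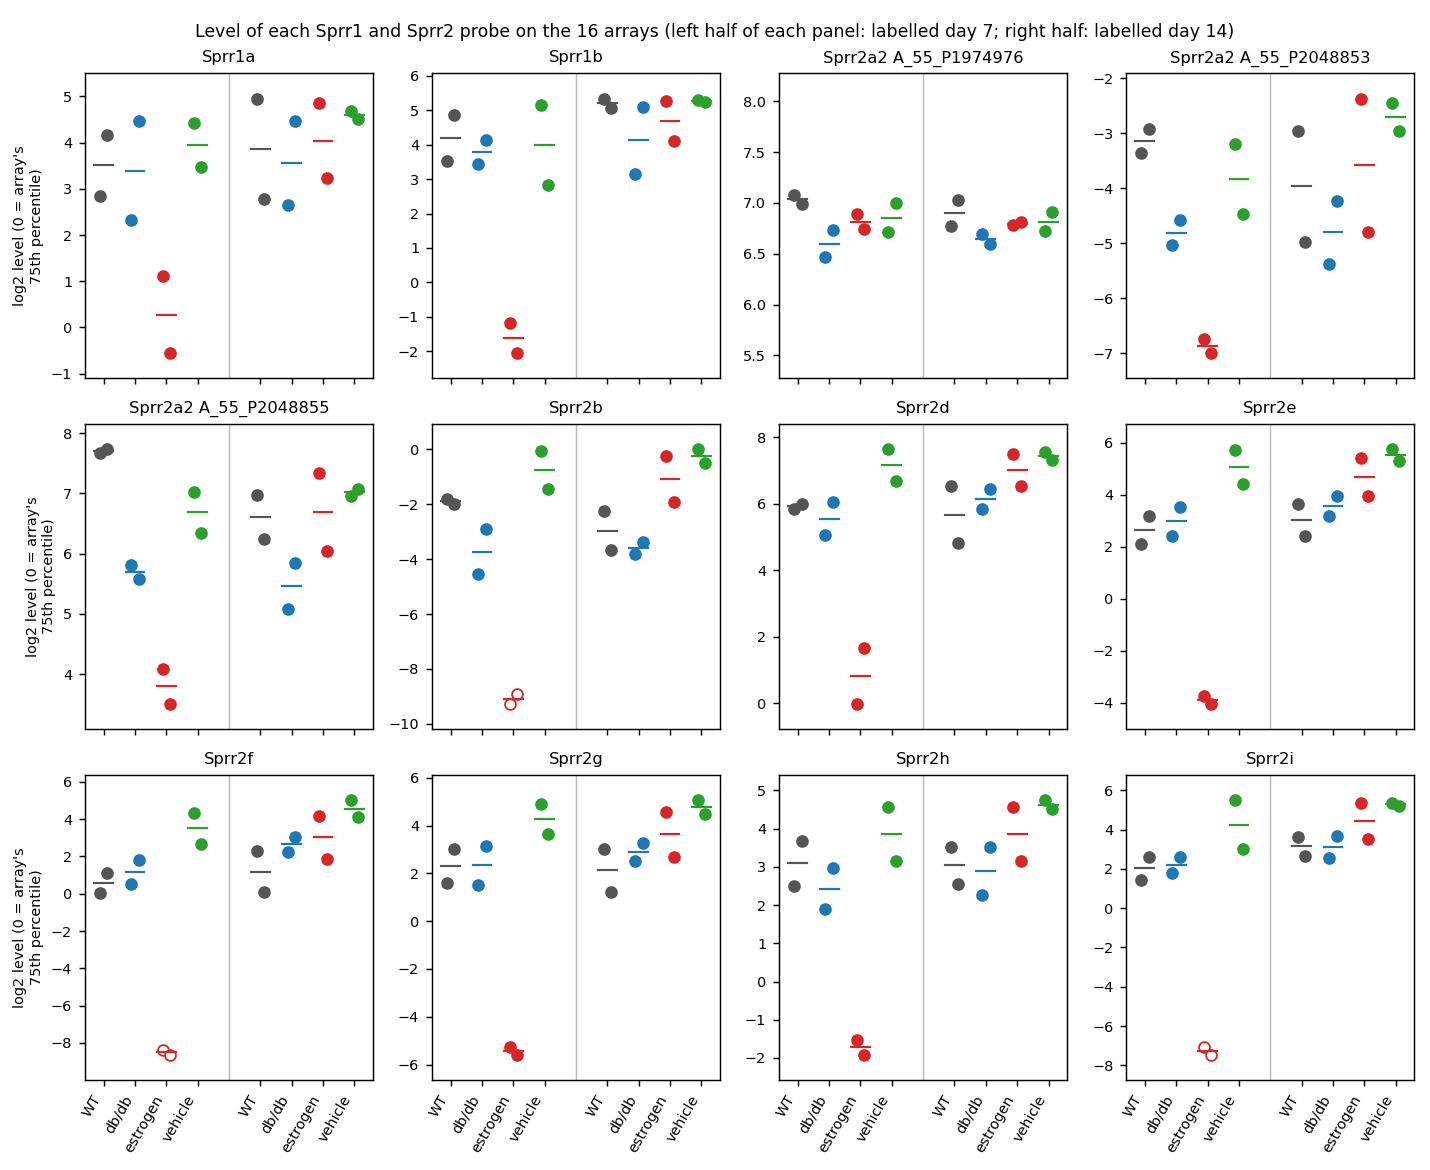
Level of each of the 12 probes on the 16 arrays; the y axis is the log2 level with 0 at the 75th percentile of the array and has its own range in each panel, each circle is 1 array, each bar the mean of 2 arrays, and open circles are arrays on which the probe was not well above background. The db/db + estrogen arrays labelled day 7 lie below all the others in every panel except that of A_55_P1974976, which stays between 6.47 and 7.08.

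Counted over the family for labelled day 7, 11 of 12 probes were over 2-fold lower with estrogen than in db/db with no overlap between arrays, where 5.22% of all 30162 probes were. The members' median log2 difference was -5.05 and that of all probes 0.04. Since the family was picked from this contrast, nothing is read from that count. Against db/db + vehicle, which shares the estrogen arrays, 11 of 12 were lower (5.28% of all probes, members' median -5.96), and against WT also 11 of 12 (6.12% of all probes, members' median -5.46). Within slide 1 the members' median difference between estrogen and db/db was -4.66 and within slide 2 it was -5.51, with 11 probes lower on each slide.

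The vehicle arrays labelled day 7 were at the other end. Of 12 probes, 7 were over 2-fold higher with vehicle than in db/db without overlap, where 3.46% of all probes were higher. They were Sprr2b, Sprr2d, Sprr2e, Sprr2f, Sprr2g, Sprr2h and Sprr2i, between 2.69-fold (Sprr2h) and 7.89-fold (Sprr2b) higher. Sprr1a and Sprr1b differed by 1.47-fold and 1.15-fold and their arrays overlapped. The difference was uneven between slides, as the members' median was 2.62 on slide 1, with 12 probes higher, and 0.46 on slide 2, with 10 higher and 2 lower. Against WT, 6 of 12 probes were higher with vehicle (4.59% of all probes) and 1 was lower (7.51% of all probes), the latter being A_55_P2048855.

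Between db/db and WT on labelled day 7, 3 of 12 probes were over 2-fold lower in db/db without overlap, against 9.74% of all probes. These were Sprr2b (3.57-fold), A_55_P2048855 (4.01-fold) and A_55_P2048853 (3.18-fold). A_55_P2048855 was at 7.67 and 7.73 in WT, above every other array of that labelled day, and at 5.81 and 5.58 in db/db. For the other members the 2 groups overlapped or differed by less than 2-fold, from a log2 difference of -0.66 for Sprr2h to 0.61 for Sprr2f.

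The arrays labelled day 14 were not used to pick the family and were tested with limma. A probe was called at an unadjusted two-sided p below 0.05 and a fold above 2, the thresholds of the study's methods, and the adjusted p is from limma with Benjamini-Hochberg adjustment over all probes tested. On these arrays the db/db + estrogen group was not low. Its family mean, the mean over the 12 probes after each was centred on its own mean over the 16 arrays, was 1.21 ± 1.06 (SD, n = 2) on the log2 scale, against -5.20 ± 0.18 on the arrays labelled day 7. In order, the groups stood at -5.20 ± 0.18 (db/db + estrogen, labelled day 7), -0.18 ± 0.70 (db/db, day 7), 0.25 ± 0.66 (db/db, day 14), 0.35 ± 0.90 (WT, day 14), 0.36 ± 0.52 (WT, day 7), 1.21 ± 1.06 (db/db + estrogen, day 14), 1.28 ± 0.90 (db/db + vehicle, day 7) and 1.94 ± 0.20 (db/db + vehicle, day 14). Only the lowest group was separated from its neighbour in this order by more than the spread of the 2 arrays.

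Db/db + vehicle wounds labelled day 14 had higher mean levels than db/db wounds at all 12 probes, and 6 of 12 were called higher, where 5.31% of all 29034 probes were. Both vehicle arrays were above both db/db arrays at each of the 12. The share of all probes that separate in this way was not counted, so nothing is read from that. The members' median log2 difference was 1.80 and that of all probes 0.06. Sprr2b rose 10.1-fold, from -3.80 and -3.38 in db/db to 0.00 and -0.50 with vehicle (log2 difference 3.34 ± 0.72 SE, limma adjusted p = 0.092). Sprr2i rose 4.48-fold, from 2.56 and 3.67 to 5.35 and 5.22 (2.16 ± 0.84, limma adjusted p = 0.23). Sprr2e rose 3.86-fold, from 3.18 and 3.95 to 5.74 and 5.28 (1.95 ± 0.67, limma adjusted p = 0.19). In each of these genes both vehicle arrays were above both db/db arrays.

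Sprr2h rose 3.34-fold (limma adjusted p = 0.24), as did A_55_P2048853 of Sprr2a2 by 4.28-fold (limma adjusted p = 0.24) and A_55_P2048855 by 2.94-fold (5.08 and 5.85 against 6.96 and 7.08, limma adjusted p = 0.14). None of the 6 passed an adjusted p of 0.05, although 6 of 12 had an unadjusted p below it. Sprr2f, Sprr2g and Sprr2d did not pass, with log2 differences of 1.92 ± 0.95, 1.87 ± 0.85 and 1.29 ± 0.68, and neither did Sprr1a (1.03 ± 1.03) and Sprr1b (1.14 ± 0.84). A_55_P1974976 differed by 0.17 ± 0.16. The count rested on single arrays, since it was 1 without db/db replicate 1, 2 without vehicle replicate 1 and 3 without vehicle replicate 2, with Sprr2b called each time. On the slide that held both db/db arrays and 1 vehicle array, the members' median difference was 2.01 and all 12 probes were higher.

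**Figure D3:**
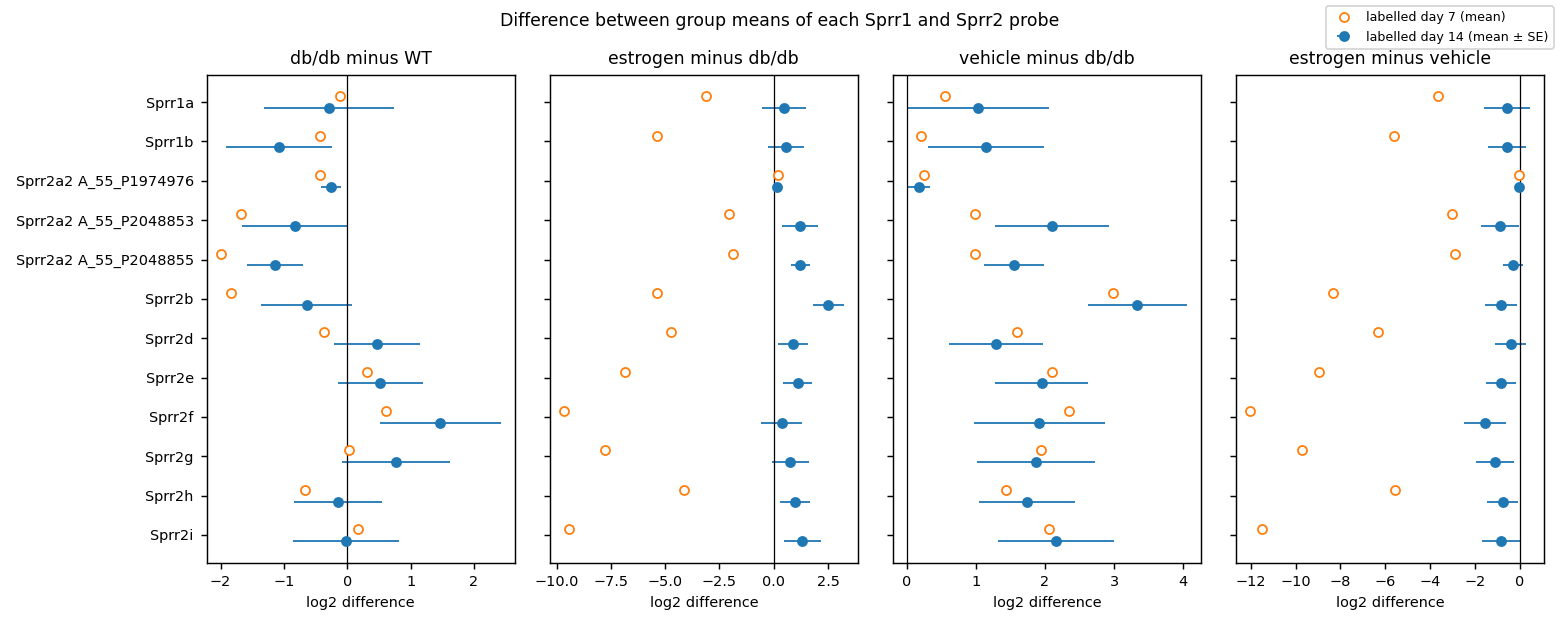
Difference between group means for each of the 12 probes in 4 comparisons; the x axis is the log2 difference with its own range in each panel, open orange circles are the arrays labelled day 7 (no test) and filled blue circles those labelled day 14 with the standard error from limma. In db/db + estrogen minus db/db, 11 measured day 7 values lie between -9.67 and -1.90 (Sprr2b, Sprr2f and Sprr2i being not well above background with estrogen) and the day 14 values between 0.15 and 2.51, and in db/db + vehicle minus db/db all values of both days lie above 0.

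Db/db + estrogen wounds labelled day 14 were also above db/db at 12 of 12 probes in their means, but 2 of 12 were called higher, where 2.56% of all 28231 probes were. Sprr2b rose 5.70-fold, with -0.23 and -1.92 with estrogen against -3.80 and -3.38 (2.51 ± 0.72, limma adjusted p = 0.29). A_55_P2048855 rose 2.35-fold, with 7.34 and 6.05 against 5.08 and 5.85 (1.23 ± 0.44, limma adjusted p = 0.42). Neither passed an adjusted p of 0.05. The estrogen arrays differed from each other, as Sprr2f was at 4.18 and 1.86 and Sprr2i at 5.34 and 3.54, and the count was 0 without estrogen replicate 1, 1 without db/db replicate 1 and 5 without estrogen replicate 2. The members' median log2 difference was 0.93, with 0.05 for all probes, and it ranged from 0.22 without estrogen replicate 1 to 1.69 without estrogen replicate 2. The slide shared with the db/db arrays held only estrogen replicate 1 of this group. Its value, 1.69, therefore comes from the same arrays as that without estrogen replicate 2 and is no separate check. The markers of the 2 estrogen arrays differed as well. Replicate 1, the higher in Sprr2f and Sprr2i, had a summed scaled signal of 489.8 for keratinocyte markers, 557.0 for wound-edge keratins, 343.5 for envelope partners and 58.1 for skeletal muscle markers. Replicate 2 had 262.6, 339.0, 151.1 and 582.7 for the same lists. The part of this in the Sprr levels was not tested.

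Estrogen and vehicle, which differ only in the hormone, were compared directly on the arrays labelled day 14. No probe of the family was called, by limma at an unadjusted p below 0.05 with a fold above 2, where 0.981% of all 28961 probes were, and the lowest unadjusted p in the family was 0.13 (Sprr2f). All 12 means were lower with estrogen, with differences from -1.55 ± 0.95 (Sprr2f) to -0.02 ± 0.16 (A_55_P1974976) and a members' median of -0.80. For 12 of 12 probes the arrays of both groups overlapped. The members' median was -0.03 on one slide and -1.35 on the other, and without estrogen replicate 1 the count was 2, Sprr2f and A_55_P2048853, both lower with estrogen. With SEs of up to 1.03 from 2 arrays per group, differences of this size could not be told from 0.

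Between db/db and WT on labelled day 14, 1 of 12 probes was called, A_55_P2048855, which fell 2.21-fold in db/db (5.08 and 5.85 against 6.97 and 6.24, -1.14 ± 0.44, limma adjusted p = 0.097). A share of 15.6% of all 30268 probes was called lower in this comparison. The call was lost without db/db replicate 1, and without WT replicate 1 it was lost too while Sprr2f was called, higher in db/db. The other differences ran from -1.08 ± 0.84 for Sprr1b to 1.47 ± 0.95 for Sprr2f. The same probe was the one that stood highest in WT on the arrays labelled day 7.

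Both treated groups were also set against WT, a comparison added after the other results were seen, and it shares its vehicle and estrogen arrays with those above. With vehicle, 7 of 12 probes were called higher than in WT on labelled day 14 (2.54% of all 30508 probes), and Sprr2f, Sprr2b and Sprr2e also passed an adjusted p of 0.05, as 8.81% of all probes did in either direction. Sprr2f rose 10.4-fold, from 2.30 and 0.08 in WT to 5.01 and 4.13 (3.38 ± 0.95, limma adjusted p = 0.043). Sprr2b rose 6.52-fold, from -2.24 and -3.67 to 0.00 and -0.50 (2.71 ± 0.72, limma adjusted p = 0.036). Sprr2e rose 5.53-fold, from 3.66 and 2.43 to 5.74 and 5.28 (2.47 ± 0.67, limma adjusted p = 0.040). In all 3 genes both vehicle arrays were above both WT arrays.

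Sprr1b did not move with them, at 5.29 and 5.24 with vehicle and 5.34 and 5.07 in WT (0.06 ± 0.84), and A_55_P2048855 was at 6.96 and 7.08 against 6.97 and 6.24 (0.41 ± 0.44). The count was 3 with slide as a block and between 2 and 8 without single arrays, with 2 without WT replicate 2, 3 without vehicle replicate 1 and 4 without vehicle replicate 2. With estrogen, 2 of 12 were called higher than in WT (2.51% of all probes), Sprr2b (1.88 ± 0.72, limma adjusted p = 0.12) and Sprr2e (1.63 ± 0.67, limma adjusted p = 0.14), and neither remained called with slide as a block. That count was 0 without estrogen replicate 1 or WT replicate 2 and 5 without estrogen replicate 2 or WT replicate 1.

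Over the 16 arrays, each member's level followed the rest of the family. The median Pearson correlation of a probe with the other 11 was between 0.80 and 0.97 for 11 probes and -0.03 for A_55_P1974976. The 2 estrogen arrays labelled day 7 carry much of this. Over the other 14 arrays the medians were 0.89 for Sprr2d, 0.86 for Sprr2h, 0.83 for Sprr2g and 0.82 for Sprr2e, but 0.48 for Sprr1b and 0.41 for A_55_P2048855. These are descriptions over arrays that share slides and groups.

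The 10 genes outside the family whose level was most like the family mean over the 16 arrays, among 17546 genes with 1 probe each, were Gjb2 (r = 0.985), Lce3a (0.983), Sprr2j-ps (0.982), Lce3b (0.978), Csta3 (0.976), Lce3e (0.974), Gm5478 (0.970), Uox (0.964), Fxyd4 (0.962) and Teddm3 (0.962). Gjb2 encodes connexin 26, a gap junction protein, and Lce3a, Lce3b and Lce3e are late cornified envelope genes of the same gene complex. Their measured log2 differences between estrogen and db/db on the arrays labelled day 7 ran from -9.39 for Lce3a to -2.25 for Teddm3. Without those 2 estrogen arrays the order changed. Gjb2 (r = 0.938) and Uox (0.917) were still among the 10 most alike, whereas Lce3a (0.880) ranked 43 and Csta3 (0.853) ranked 74, so the order among these 10 depends on the 2 low arrays, although all 10 kept r of 0.819 or more without them.

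Among the neighbours of the same family, 4 of 6 listed genes had a probe. Sprr2k was at -3.59 and 0.45 in db/db and -9.22 and -9.68 with estrogen on the arrays labelled day 7, at least 50.4-fold lower and not well above background. The pseudogene Sprr2j-ps was at -0.91 and 0.85 against -7.14 and -9.32, at least 146-fold lower. Sprr4 overlapped between these groups (-3.06 and 0.96 against -1.84 and -3.94). Sprr3 was well above background on 1 array of each of these groups and was not tested. None of the neighbours passed the call on labelled day 14 in db/db + vehicle or db/db + estrogen against db/db. With vehicle against db/db, the median of the 3 tested was 1.95, with Sprr2j-ps at 2.19 ± 1.13, Sprr2k at 1.95 ± 1.41 and Sprr4 at 0.99 ± 1.82. Against WT, Sprr2j-ps was called higher with vehicle (2.69 ± 1.13, limma adjusted p = 0.14), where 2.54% of all probes were. The higher levels with vehicle were thus not particular to the members.

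Envelope partners are the proteins that are cross-linked with Sprr proteins and the enzymes that link them. Of 15 measured, 1 was over 2-fold lower with estrogen than in db/db on labelled day 7 without overlap, and 4 were higher. Of all probes, 5.22% were lower and 6.86% higher. The list's median was 0.59. Repetin (Rptn) was the lower one, with a log2 difference of -2.46. Hornerin (Hrnr) at 1.65 and filaggrin 2 (Flg2) at 1.96 were higher, and loricrin (Lor), the major envelope protein, was at 0.77 with overlapping arrays. The db/db arrays were themselves low for this list, with 7 of 15 genes lower than in WT (9.74% of all probes were). Against vehicle, none of the 15 was higher with estrogen and 5 were lower (5.28% of all probes were), with a list median of -0.18. These 5 were Rptn (-4.87), Tgm1 (-1.93), Serpinb2 (-1.85), Evpl (-1.55) and Ppl (-1.07). Against WT, none was higher and 4 were lower (6.12% of all probes were), with a median of -0.49. On labelled day 14, 3 of 15 were called higher with vehicle than in db/db (5.31% of all probes were) and none lower. They were Tgm1 (1.56 ± 0.56, limma adjusted p = 0.20), the transglutaminase that anchors the envelope, Tgm5 (1.61 ± 0.40, limma adjusted p = 0.12) and envoplakin (Evpl, 1.17 ± 0.47, limma adjusted p = 0.24).

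Cytokines known to induce Sprr genes, with their receptors, had 16 of 16 genes measured. On labelled day 7, 6 of 16 were over 2-fold lower with estrogen than in db/db (5.22% of all probes were). Against vehicle, 10 of 16 were lower (5.28% of all probes). The medians were -0.75 and -1.59, and none was higher in either comparison. Il1b (-6.48), Il1a (-3.44), Il6 (-3.35) and Osm (-3.07) had log2 differences of this size against db/db, and the neutrophil markers given below were lower in the same comparison. Against WT, 6 of 16 were lower with estrogen and none higher (6.12% of all probes were lower), with a median of -0.6. Il1b (-2.66) and Il1a (-2.2) were among them, whereas Il6 (-0.63) and Osm (-0.16) had overlapping arrays. The db/db arrays were themselves higher than WT for 6 of 16 and lower for 3. Of all 29698 probes, 1850 were higher and 9.74% lower. Il1b was at 3.81, Osm at 2.9 and Il6 at 2.72 in that comparison. On labelled day 14, where Sprr genes were higher with vehicle than in db/db, 2 of 15 tested were called higher and 2 lower. Of all probes, 5.31% were called higher and 2.20% lower. The list's median was 0.00. Il1b fell (-2.73 ± 1.01, limma adjusted p = 0.21) and Il36g, made by keratinocytes, rose (1.69 ± 0.55, limma adjusted p = 0.18).

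Of 18 transcription factors that act in keratinocytes or on Sprr promoters, 2 were over 2-fold lower and 3 higher with estrogen than in db/db on labelled day 7. Of all probes, 5.22% were lower and 6.86% higher. The list's median was -0.30. The 2 lower ones were Elf3 (-2.76), an epithelial ETS factor, and the AP-1 subunit Fosl1 (-1.78). Pou2f3, which binds the octamer, was higher by 1.16, as were Gata3 (1.83) and Tfap2a (1.06). The AP-1 subunits Fos (-0.49), Jun (-0.36) and Jund (0.14) differed by less than 2-fold. The db/db arrays were themselves low for this list, with 5 of 18 lower than in WT (9.74% of all probes were) and 1 higher, and a median of -0.57. With estrogen against WT, none of the 18 was higher and 3 were lower (6.12% of all probes), with a median of -0.4. Against vehicle, 1 was higher (1898 of all 30134 probes were) and 4 were lower (5.28% of all probes), with a median of -0.33. On labelled day 14, 5 of 18 were called higher with vehicle than in db/db (5.31% of all probes were) and 1 lower (2.20%). Ehf, another epithelial ETS factor, rose by 1.94 ± 0.41 (limma adjusted p = 0.089), and Fosb fell by 2.99 ± 0.74 on the log2 scale (limma adjusted p = 0.12).

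Because the RNA came from whole wounds, fewer cells of a type and less RNA per cell cannot be told apart, and marker genes of the cells involved are given beside the results. For estrogen against db/db on labelled day 7, 3 of 8 keratinocyte markers were over 2-fold higher (6.86% of all probes were) and none lower. Their summed scaled signal was 398.1 to 506.7 with estrogen, 196.2 to 311.1 in db/db, 399.6 to 556.7 with vehicle and 416.3 to 418.2 in WT. The sum with estrogen was thus above that of db/db and overlapped those of vehicle and WT. The list's median log2 difference was 0.69 against db/db, -0.36 against vehicle and -0.34 against WT. The keratins of the wound edge are Krt6a, Krt6b, Krt16 and Krt17, which migrating keratinocytes switch on. Against db/db they went the other way, as 3 of 4 were over 2-fold lower (5.22% of all probes were). Their summed scaled signal was 35.4 to 42.4 with estrogen, 221.5 to 229.3 in db/db, 310.3 to 601.8 with vehicle and 334.7 to 399.5 in WT. Krt6b had a log2 difference of -5.04 and Krt17 of -0.85. All 4 were well above background on every array.

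Neutrophil markers were lower on these arrays too. Of 10 genes, 9 were over 2-fold lower with estrogen than in db/db (5.22% of all probes were). Their summed scaled signal was 50.9 to 65.8 with estrogen, 447.8 to 518.3 in db/db, 462.4 to 488.6 with vehicle and 351.1 to 392.4 in WT. Such a sum is carried by the brightest genes. The mean log2 level was -2.0 and -1.75 with estrogen and -0.63 and -0.88 in WT. It was 4.01 and 3.18 in db/db and 0.37 and 1.15 with vehicle. Against WT, 3 of 9 tested were lower with estrogen and none higher (6.12% of all probes were lower), with a median of -0.69. In db/db, 7 of 10 were higher than in WT, with a median of 3.62, where 1850 of all 29698 probes were. Ngp, a granule gene, was not well above background on both WT arrays and 1 estrogen array, nor was Retnlg on 1 WT array. With vehicle, 6 of 10 were over 2-fold lower than in db/db (2.79% of all probes were), while 7 Sprr probes were higher. Fibroblast markers summed to 691.6 to 812.3 with estrogen and 708.6 to 729.6 in db/db, and none of 5 was 2-fold apart. Of 5 adipocyte markers 1 was higher (6.86% of all probes were), and their sum was 156.9 to 227.7 against 80.2 to 159.4. Of 6 skeletal muscle markers 3 were higher (6.86% of all probes) and 2 lower (5.22%), with a sum of 315.5 to 346.2 against 154.4 to 314.2. The part of wound-edge keratinocytes, neutrophils and the other cells in the Sprr levels was not tested.

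**Figure D4:**
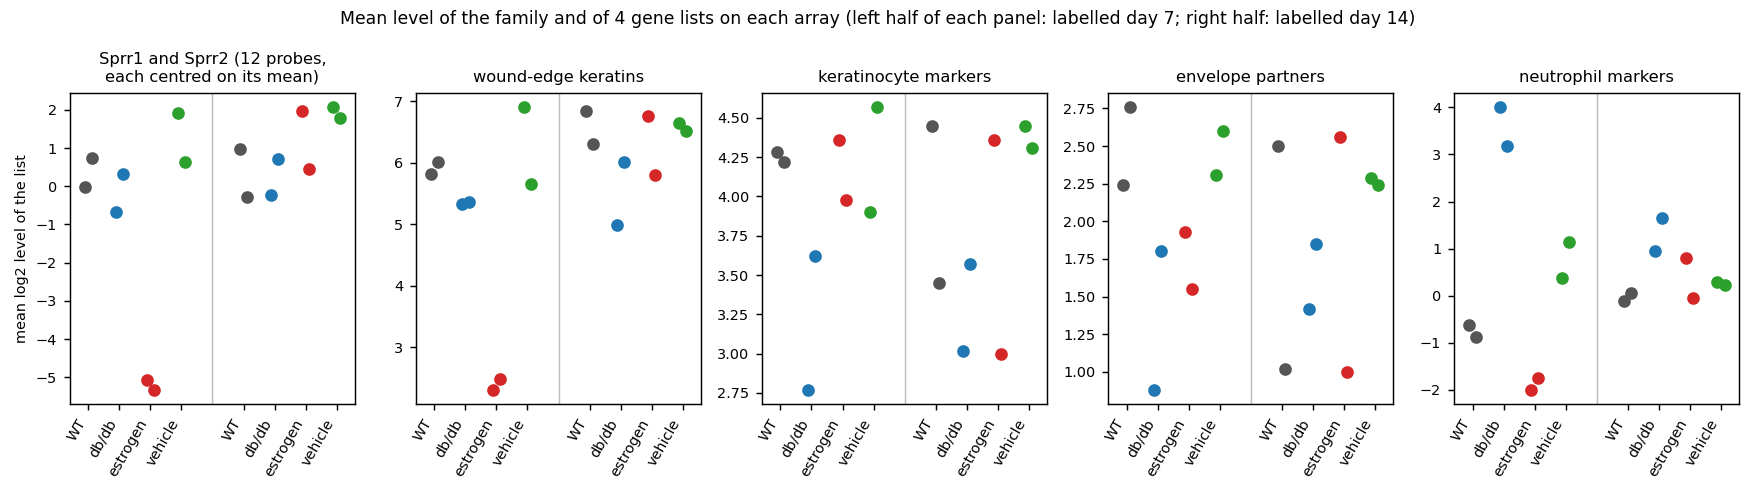
Mean log2 level on each array of the 12 family probes, each centred on its own mean, and of 4 gene lists, with 0 at the 75th percentile of the array for the lists; each point is 1 array and each panel has its own range. On the arrays labelled day 7 with estrogen the family mean is -5.07 and -5.33 and the wound-edge keratin mean 2.31 and 2.49, both below all other arrays, while the keratinocyte marker mean is 4.36 and 3.98.

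For vehicle against db/db on labelled day 14, 4 of 8 keratinocyte markers were called higher (5.31% of all probes were) and none lower. Their summed scaled signal was 439.9 to 500.3 against 196.1 to 351.5. Of the wound-edge keratins 1 of 4 was called higher (5.31% of all probes were). It was Krt17, which rose by 1.69 ± 0.45 (limma adjusted p = 0.13). The sum of the 4 keratins was 473.6 to 506.9 against 177.2 to 363.0. Of 10 neutrophil markers 3 were called lower (2.20% of all probes were) and none higher, with a list median of -1.0. Their mean log2 level was 0.3 and 0.23 against 0.95 and 1.64. The sum, which the brightest genes carry, ran the other way, with 356.8 to 390.1 against 273.5 to 315.8. The median log2 difference of the keratinocyte list was 0.99 and that of the 12 Sprr probes 1.80 in this comparison. Skeletal muscle markers summed to 105.8 to 128.8 with vehicle and 252.5 to 417.1 in db/db, with a list median of -1.62. Of these, 1 of 6 was called lower (2.20% of all probes were), Myh7 (-9.46 ± 3.16, limma adjusted p = 0.18). Against WT, where 7 Sprr probes were called higher with vehicle, none of the 8 keratinocyte markers and none of the 4 wound-edge keratins was called, and their sums in WT were 346.4 to 474.7 and 504.4 to 559.8. The part of keratinocyte and muscle content in the levels of the Sprr probes was not tested.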

How the data were processed

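The genes and lists were chosen with earlier results of these data known. The authors scanned 1-colour Agilent mouse arrays and made the deposited processed signal, an intensity with background subtracted and spatial trends removed, with Feature Extraction 11.0.1.1, without scaling between arrays. The deposited series matrix holds a ratio, which equalled the signal over the array's 75th percentile to within 0.5% for at least 99.81% of 34643 probes per array. Outlier spots were left out, spots of a probe were averaged, and the 75th percentile over non-control probes was subtracted on the log2 scale. Probes were named through RefSeq, which matched 27421 of 39429 probes.

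For labelled day 14, limma 3.58.1 (R 4.3.3) was fitted to 16 arrays with 1 mean for each of 8 groups and 8 residual degrees of freedom, and the script was checked on simulated data. The filter asked for both arrays of either group compared to be well above background. For a probe not well above background in 1 group, the bound on the fold took, per array, the higher of its own signal and the lowest signal well above background. Arrays labelled day 7 got no test. The number of arrays limits the precision, since 2 against 2 cannot reach an exact permutation p below 0.333. The study tabulates 5 fold changes of Sprr genes and pseudogenes under day 14 for estrogen against db/db. All 5 lie within 1% of values of the arrays labelled day 7, and 0 within 1% of those labelled day 14. All 10 members are named, and likeness used 1 probe per gene, the one with the highest mean. The lists were neighbours, envelope partners, cytokines and receptors, transcription factors, and markers of keratinocytes, wound-edge keratinocytes, neutrophils, fibroblasts, adipocytes and skeletal muscle. Alternatives were normexp (offset 50), quantile normalization, other filters on dim signals, the series matrix, only the 4 arrays compared, slide or replicate number as a block, adjusted p, and leaving out each array. Comparisons of treated groups with WT were added after the data were seen.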

Additional observations from a re-analysis of the deposited data

Results flagged for a closer look

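Between estrogen and db/db, 3 probes had both estrogen arrays below both db/db arrays on labelled day 7 and above both on labelled day 14. The share of all probes that do so was not counted, and the choice of the family favoured the day 7 part in advance. Nothing is therefore read from the number of probes. For Sprr2b the measured log2 difference was -5.36 on labelled day 7 and 2.51 on labelled day 14, which are 7.88 apart. Its signal with estrogen on labelled day 7 was not well above background, so there it is known only to be at least 11.2-fold lower, and the gap of 7.88 is not an exact size. For Sprr2d it was -4.73 and 0.88, which are 5.61 apart, and for A_55_P2048855 of Sprr2a2 it was -1.90 and 1.23, which are 3.13 apart. These gaps between labelled days were not tested, because the family was picked for its low values on the earlier of them, and arrays of both days were also scanned on different days.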

How the results depend on the processing

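For labelled day 7, 11 probes were lower with estrogen than in db/db, db/db + vehicle or WT whichever array was left out. Leaving out an array cannot make separate arrays overlap, so these counts could fall only where a difference shrank below 2-fold. The family was also picked for these low values, so nothing is read from the steady count. Between db/db and WT the 3 probes became 4 to 5 without single arrays, with 5 without WT replicate 1 or without db/db replicate 2. For labelled day 14, the counts of called probes depended on single arrays. Leaving out 1 array gave 0 to 1 for db/db against WT (main value 1), 0 to 5 for estrogen against db/db (2), 1 to 7 for vehicle against db/db (6), 0 to 2 for estrogen against vehicle (0), 0 to 5 for estrogen against WT (2) and 2 to 8 for vehicle against WT (7). In db/db against WT without WT replicate 1, A_55_P2048855 lost its call, and a different probe, that of Sprr2f, was called, higher in db/db. An arm left with 1 array was assumed to vary like the other groups. With adjusted p, 0 probes were called for db/db against WT, estrogen against db/db, vehicle against db/db and estrogen against WT, and 3 for vehicle against WT. With only the 4 arrays compared, 1 was called for estrogen against db/db and 0 for estrogen against WT. With slide as a fixed block, 0 were called for estrogen against WT and 3 for vehicle against WT, and quantile normalization called 0 for db/db against WT. Normexp, the series matrix and other filters on dim signals left every count within 1.5 times. Of the values of single probes under the alternatives, 600 kept their side of the threshold or moved by less than 1 SD, 61 lost a call, 23 moved by more and 0 turned their direction. The causes of these changes were not tested.

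Replicate number as a block called 6 probes for vehicle against db/db and 2 for estrogen against db/db. It changed no count by over 1.5 times. The labels do not say whether the numbers pair the samples. On labelled day 7 replicate 1 of every group was on slide 1 and replicate 2 on slide 2, so there the number is also the slide. Same-numbered arrays of 2 groups had deviations from the group means that correlated between -0.454 and 0.389. These correlations do not settle whether samples were paired.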
